A study of Homo sapiens with 11 samples.

Results

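The HOX genes were examined across Ikaros peak lists from 4 human leukemia cell lines. They were taken as the protein-coding genes whose symbol is HOXA, HOXB, HOXC or HOXD followed by a number, which gave 39 of the 20033 protein-coding genes of the annotation. There were 11 genes in the HOXA cluster, 10 in HOXB, 9 in HOXC and 9 in HOXD, and each cluster was also described apart. A gene was counted as having a peak when any part of a peak lay within 1000 bp of any of its transcription start sites (TSSs) annotated in GENCODE.

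Ikaros, the zinc finger protein made from IKZF1, was mapped by chromatin immunoprecipitation and sequencing in pre-B cell acute lymphoblastic leukemia lines. JM1 was studied without drug and after 1 day in 20 µM CX-4945, which inhibits CK2, a kinase that phosphorylates Ikaros. REH and 697 received no drug, and Nalm6 received the same CX-4945 treatment as JM1. JM1 and REH were precipitated with a Bethyl antibody, and 697 and Nalm6 with an affinity-purified one, so cell line and antibody cannot be told apart between these pairs. The 11 libraries were 6 Ikaros libraries and 5 inputs, and each of the 5 conditions had 1 peak list, with 2 Ikaros libraries and 1 list for Nalm6. Each condition stands for 1 established line, no untreated Nalm6 and no treated REH or 697 list was analysed here, and no value below has a replicate error or a test between conditions. Intervals are 95% exact Clopper-Pearson intervals and cover counting error only.

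HOX proteins are homeodomain transcription factors that set positional identity along the body axis, and the genes lie in an order along each cluster that follows their order of use. Paralogue groups are the numbered positions shared by the clusters. In blood, HOX genes are most active in stem and early progenitor cells and are turned down as cells mature, with Polycomb complexes holding them silent and KMT2A keeping them on. HOXA9 with its cofactor MEIS1 is a central driver of leukemia with KMT2A rearrangement. Ikaros also acts early in lymphoid development, through complexes that include histone deacetylases. A peak shows antibody enrichment at a place and says nothing of whether the gene is expressed.

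The peak lists differed in length, which sets how often any gene is reached. The lists held 37448 peaks (untreated JM1), 88692 (treated JM1), 83563 (REH), 19652 (697) and 70894 (Nalm6), the order in which values are given throughout, and median peak widths ran from 626 to 1195 bp. Each peak carries a whole-number score given by the authors, with a minimum of 10 in every list, whose definition the sources used here do not give. Scores are therefore given with their percentile, the share of peaks of the same list with that score or a lower one. Of 8 marker genes of B cell precursors, 7, 7, 6, 2 and 7 were reached by a peak in the 5 lists, in that order. Of 5 T cell markers the counts were 1, 2, 1, 1 and 1, and of 5 myeloid markers 2, 4, 4, 2 and 4. The shares of all protein-coding genes were 58.8, 81.2, 81.8, 49.5 and 74.3%.

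Promoters of 20 of the 39 HOX genes were held in the RefSeq promoter table (GRCh38.p14, 250 bases before to 50 bases after a start). A few are printed because the comparisons below turn on them, 5′ to 3′ on the strand of the gene, with each match to the Ikaros core motif in capitals (GGGAA, or TTCCC where the match is on the other strand). The first 4 stand for genes with a peak near a TSS in all 5 lists, 1 from each cluster: HOXA4 (chr7:27130708-27131007, minus strand), HOXB1 (chr17:48530962-48531261, minus strand), HOXC4 (chr12:54016638-54016937, plus strand, a start that HOXC5 shares in the table) and HOXD13 (chr2:176092471-176092770, plus strand).
HOXA4: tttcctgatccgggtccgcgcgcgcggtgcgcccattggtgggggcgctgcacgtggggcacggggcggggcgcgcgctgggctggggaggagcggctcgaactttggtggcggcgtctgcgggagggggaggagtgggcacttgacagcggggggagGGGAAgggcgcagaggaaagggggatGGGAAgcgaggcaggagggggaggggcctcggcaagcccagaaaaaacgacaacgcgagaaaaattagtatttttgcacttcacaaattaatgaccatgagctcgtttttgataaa
HOXB1: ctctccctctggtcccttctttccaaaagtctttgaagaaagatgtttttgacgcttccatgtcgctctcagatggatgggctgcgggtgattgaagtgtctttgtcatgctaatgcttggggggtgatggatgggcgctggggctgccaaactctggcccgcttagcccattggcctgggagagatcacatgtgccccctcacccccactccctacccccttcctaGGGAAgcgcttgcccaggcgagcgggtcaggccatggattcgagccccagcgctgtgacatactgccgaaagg
HOXC4: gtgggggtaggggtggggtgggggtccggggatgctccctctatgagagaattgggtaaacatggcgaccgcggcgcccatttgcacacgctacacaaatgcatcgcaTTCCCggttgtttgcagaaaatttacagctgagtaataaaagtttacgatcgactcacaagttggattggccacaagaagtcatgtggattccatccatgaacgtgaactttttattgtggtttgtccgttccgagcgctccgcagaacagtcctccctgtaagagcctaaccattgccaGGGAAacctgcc
HOXD13: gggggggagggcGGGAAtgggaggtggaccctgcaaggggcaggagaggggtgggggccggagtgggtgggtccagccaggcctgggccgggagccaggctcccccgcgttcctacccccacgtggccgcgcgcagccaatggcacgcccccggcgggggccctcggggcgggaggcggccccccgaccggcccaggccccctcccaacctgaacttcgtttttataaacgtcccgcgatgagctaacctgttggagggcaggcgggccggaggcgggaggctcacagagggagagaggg

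The next 2 belong to genes with a peak in treated but not untreated JM1, HOXA2 (chr7:27102634-27102933, minus strand) and HOXD8 (chr2:176129455-176129754, plus strand). The last is HOXA13 (chr7:27200042-27200341, minus strand), where Nalm6 differed from the other lists.
HOXA2: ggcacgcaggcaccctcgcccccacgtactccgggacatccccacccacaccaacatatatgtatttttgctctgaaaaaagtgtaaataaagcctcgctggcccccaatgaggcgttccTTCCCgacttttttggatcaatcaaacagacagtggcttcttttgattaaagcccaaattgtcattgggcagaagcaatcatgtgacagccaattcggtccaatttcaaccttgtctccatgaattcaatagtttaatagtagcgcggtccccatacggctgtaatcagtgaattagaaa
HOXD8: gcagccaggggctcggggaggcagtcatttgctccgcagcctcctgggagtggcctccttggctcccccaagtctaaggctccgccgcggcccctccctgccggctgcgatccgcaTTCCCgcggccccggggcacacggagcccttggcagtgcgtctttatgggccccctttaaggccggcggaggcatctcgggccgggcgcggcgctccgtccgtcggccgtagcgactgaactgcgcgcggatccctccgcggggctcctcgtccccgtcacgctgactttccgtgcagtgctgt
HOXA13: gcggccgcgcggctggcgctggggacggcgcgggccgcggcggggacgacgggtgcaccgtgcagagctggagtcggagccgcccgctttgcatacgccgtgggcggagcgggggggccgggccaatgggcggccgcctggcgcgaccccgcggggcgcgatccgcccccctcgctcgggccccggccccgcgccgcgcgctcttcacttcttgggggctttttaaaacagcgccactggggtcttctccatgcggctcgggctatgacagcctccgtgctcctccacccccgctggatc

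Peaks lay directly over the HOXA4 and HOXD13 sequences in 5 of 5 lists. The HOXB1 and HOXC4 sequences were overlapped in every list but 697, where the peak counted for the gene lay beside the printed bases or at another start. HOXA2 was overlapped in 3 lists and HOXD8 in 4, with untreated JM1 lacking both, and HOXA13 was overlapped in every list but Nalm6. HOXA4 held 2 matches to the motif, HOXC4 held 2, HOXB1, HOXD13, HOXA2 and HOXD8 held 1 each and HOXA13 held 0. Among the distinct HOX promoter sequences in the table, 7 of them of HOXA3, 18 of 26 held the motif (69.2%, interval 48.2 to 85.7%), against 65.0% of all 34796. The motif is short enough to be found in most sequences of this length, and its share in HOX promoters was close to that in promoters at large.

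Most HOX genes had Ikaros peaks at their start sites in every list. Peaks were near a TSS of 32 of 39 genes for untreated JM1 (82.1%, interval 66.5 to 92.5%), where 58.8% of all protein-coding genes had one. All 39 had one in treated JM1 (background 81.2%) and all 39 in REH (background 81.8%). In 697 the count was 35 (89.7%, interval 75.8 to 97.1%, background 49.5%), and in Nalm6 it was 37 (94.9%, interval 82.7 to 99.4%, background 74.3%). The HOX share stood above the share of all genes in each list. HOX genes lie so close together that 1 wide peak can serve several of them, so they are not independent draws: 36, 47, 46, 41 and 48 distinct peaks stood behind these counts in untreated JM1, treated JM1, REH, 697 and Nalm6, and 6, 11, 10, 4 and 12 of them lay near more than 1 HOX gene.

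Genes with start sites rich in CpG also had peaks more often than all genes did. HOX start sites were more often rich in CpG than those of genes at large, in 27 of 39 genes (69.2%) against 56.4%. In HOXB the count was 4 of 10 (40.0%), and the median GC content at HOX start sites was 59.7% against 61.3% for all genes. Among the 11300 protein-coding genes with CpG-rich start sites, the shares with a peak were 76.9, 97.2, 97.5, 70.7 and 92.7% in the order of the lists. This set was not matched to the HOX genes whose start sites were not CpG-rich. These shares lie inside the HOX interval in every list but 697, where the HOX interval began at 75.8%. That exception depended on the start sites used. With only the canonical start site of each gene, the 697 HOX share was 76.9% (interval 60.7 to 88.9%). The CpG-rich share, 68.5%, then lay inside the interval, with other homeobox families at 72.2% and all genes at 45.1%. Of 79 genes of other homeobox families, such as PAX, LHX and NKX genes, 64, 76, 77, 63 and 75 had a peak in the same order. The HOX share in 697 was 89.7% and that of the other homeobox genes 79.7% (interval 69.2 to 88.0%), and the intervals overlapped.

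**Figure D1:**
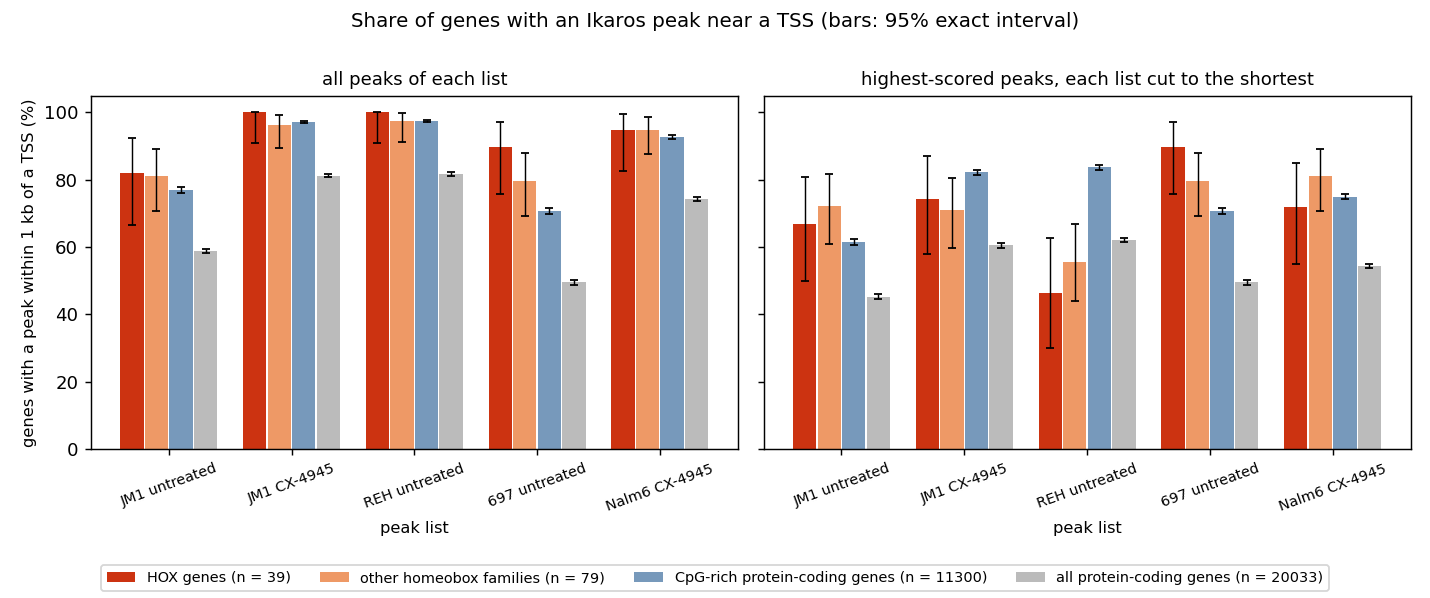
Percent of genes with a peak within 1 kb of a TSS, by list, for HOX genes, other homeobox families, protein-coding genes with a CpG-rich TSS and all protein-coding genes; the left panel uses all peaks, the right panel the 19652 highest-scored peaks of each list, and whiskers are 95% exact intervals. With all peaks the HOX bar is above that of all genes in each list, and with equal list lengths it falls to 46.2% in REH, below the 62.2% of all genes.

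The order of the lists changed when each was limited to its 19652 highest-scored peaks, the length of the 697 list. For untreated JM1 this left 26 HOX genes with a peak (66.7%, background 45.3%) and for treated JM1 29 (74.4%, background 60.5%). REH kept 18 (46.2%, background 62.2%), 697 kept its 35 (89.7%, background 49.5%) and Nalm6 kept 28 (71.8%, background 54.4%). REH thus went from a peak at every HOX gene to a share below that of all genes, with an interval of 30.1 to 62.8%. Other homeobox families were also below all genes in REH at this length (44 of 79, 55.7%), and CpG-rich genes kept 83.7%. HOX genes were below CpG-rich genes in treated JM1 (74.4 against 82.3%) and Nalm6 (71.8 against 75.0%) as well, with the CpG-rich share inside the HOX interval in both. The REH genes left were unevenly spread, with 8 of 11 in HOXA, 2 of 10 in HOXB, 4 of 9 in HOXC and 4 of 9 in HOXD. In 697 all 9 HOXC and all 9 HOXD genes were reached at this length. The shares in the plot of genes with a peak show that at this length the HOX share exceeded that of all genes by the most in 697 and was below it in REH.

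By gene, 28 of the 39 had a peak near a TSS in all 5 lists (background 41.8%), 9 in 4 lists, 2 in 3 lists and none in fewer, whereas 14.7% of all protein-coding genes had a peak in no list. Other homeobox families were alike in this, with 57 of 79 in all 5 lists (72.2%) beside 71.8% of HOX genes, and 2.53% in no list. CpG-rich genes stood at 60.3% and 1.62%. The 2 genes reached in 3 lists were HOXA2, which patterns the second branchial arch, and HOXB5. All 9 HOXC genes were among the 28. So were HOXA4, HOXA5, HOXA7, HOXA9, HOXA10 and HOXA11, 7 HOXB genes (HOXB1, HOXB2, HOXB3, HOXB4, HOXB7, HOXB8 and HOXB9) and 5 HOXD genes (HOXD1, HOXD10, HOXD11, HOXD12 and HOXD13). Posterior genes, in paralogue groups 9 to 13, had a peak in 16 of 16 cases in untreated JM1, treated JM1 and REH, 15 in 697 and 14 in Nalm6. Anterior genes, in groups 1 to 4, had one in 8, 12, 12, 11 and 12 of 12, and central genes, in groups 5 to 8, in 8, 11, 11, 9 and 11 of 11. The shares of all protein-coding genes were 58.8, 81.2, 81.8, 49.5 and 74.3% in the same order. In untreated JM1 the 7 genes without a peak were thus all anterior or central. This depended on low-scored peaks and on the rule. The untreated peaks at HOXA11, HOXD10 and HOXD11 each scored 12 (percentile 24.3). Posterior genes without a peak were HOXD11 with canonical start sites and HOXC11 and HOXD11 by peak centre. With equal list lengths they were HOXA11, HOXD10, HOXD11 and HOXD12. Restricting each gene to its canonical start site lowered the 28 to 22 of 39 (56.4%, interval 39.6 to 72.2%). The same restriction gave 55.9% for CpG-rich genes, 59.5% for other homeobox families and 36.1% for all protein-coding genes. The HOX share was then close to that of CpG-rich genes. HOXB3, HOXB7, HOXB8, HOXC6, HOXD10 and HOXD11 were among the 28 only through other starts.

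**Figure D2:**
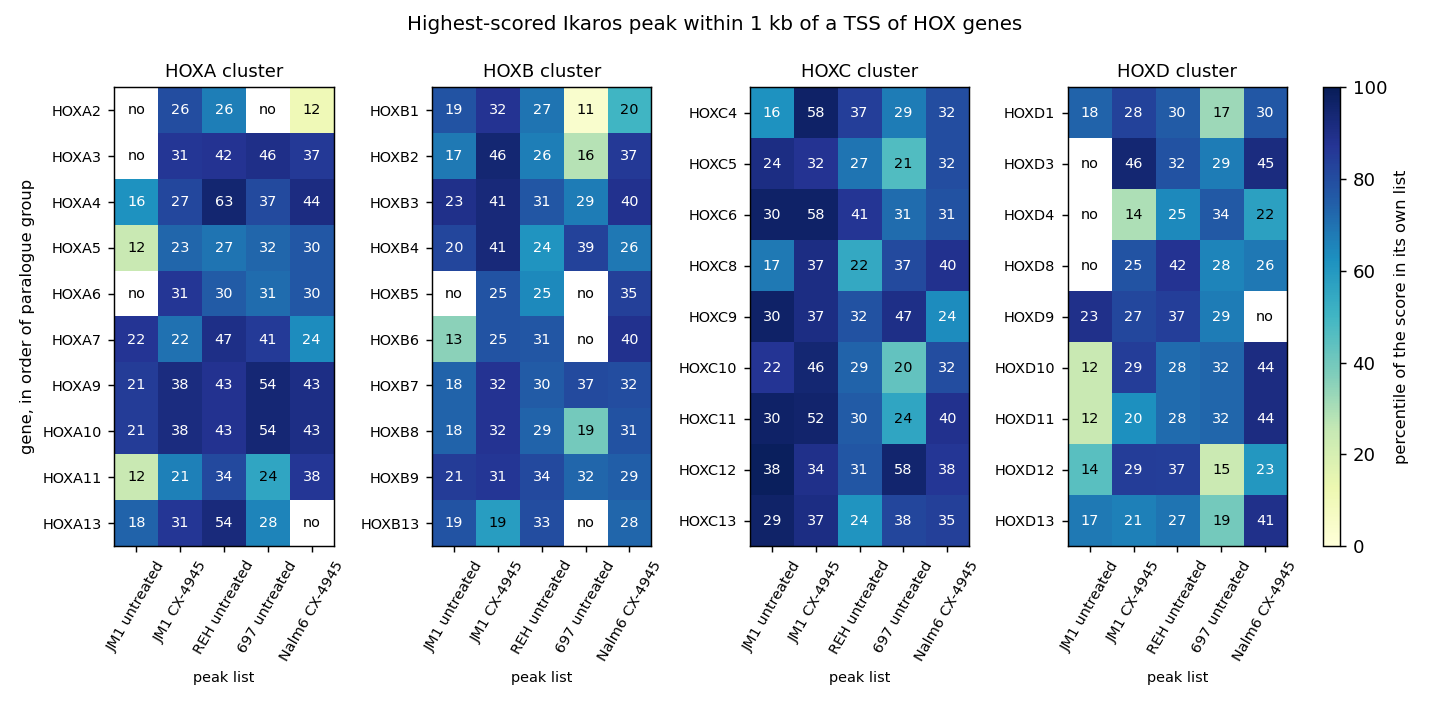
Each cell is a HOX gene named in the text (rows, ordered by paralogue group within each cluster) in a peak list (columns); the number is the score of its highest-scored peak within 1 kb of a TSS, the colour is the percentile of that score in its own list, and "no" marks genes with no such peak. The HOXC panel is filled in all 5 lists, and 7 genes have no peak in untreated JM1, 4 in 697 and 2 in Nalm6.

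The highest-scored peak at a HOX TSS ranked in the upper part of its list for most genes. The median percentile over the genes with a peak was 78.0, 86.7, 77.1, 71.1 and 79.7 in the order of the lists, and few peaks were at the very top, with a maximum percentile of 98.8, 96.6, 94.6, 95.3 and 91.6. Counted by distinct peak rather than by gene, the median percentile of peaks at HOX start sites was 73.5, 83.1, 75.4, 65.3 and 75.8 in the same order, beside 68.1, 79.8, 79.9, 62.9 and 76.6 for peaks near the TSS of any protein-coding gene. HOX start-site peaks therefore scored like other start-site peaks, a little higher in JM1 and 697 and lower in REH and Nalm6. They differed in width. The median width at HOX start sites was 1623, 3120, 4130, 662 and 2346 bp, against 1066, 1772, 1843, 758 and 1282 bp at start sites of all genes, so that only in 697 were HOX peaks narrower.

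In the HOXA cluster of chromosome 7, the leukemia gene HOXA9 and its neighbour HOXA10 had 1 peak in common as their highest in each list. Its score was 21 and 38 in JM1 without and with CX-4945, 43 in REH, 54 in 697 and 43 in Nalm6. It ranked at percentile 84.8, 91.5, 88.1, 93.9 and 90.5. This peak lies at the HOXA10 start and at upstream starts of long HOXA9 transcripts, and the 2 genes cannot be separated there. Over the RefSeq start of HOXA9 itself the scores were 17, 22, 43, 19 and 30, so that the separate HOXA9 start carried a weaker peak in every list but REH, where 1 peak of 12.9 kb spanned both.

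HOXA4, an anterior gene, had the highest score of any HOX gene in REH, 63, with 16 and 27 in JM1 without and with CX-4945, 37 in 697 and 44 in Nalm6. In Nalm6 this peak was also the highest of the HOXA cluster. HOXA7 scored 22, 22, 47, 41 and 24, HOXA5 scored 12, 23, 27, 32 and 30, and HOXA11 scored 12, 21, 34, 24 and 38 in the order untreated JM1, treated JM1, REH, 697 and Nalm6. The untreated JM1 peaks at HOXA5 and HOXA11 were near the minimum score of the list.

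In the HOXB cluster (chr17:48528526-48728750) 697 peaks were sparse, with 16 peaks over 4.72% of the cluster. HOXB4, which expands blood stem cells when overexpressed, scored 20 and 41 in JM1 without and with CX-4945, 24 in REH, 39 in 697 and 26 in Nalm6, and in 697 its peak was the highest of the cluster. HOXB3, which has 12 annotated start sites spread along the cluster, scored 23, 41, 31, 29 and 40. Its canonical start had a peak within 1000 bp in treated JM1 only. The treated JM1 score was that of the HOXB4 peak, and the REH and Nalm6 scores were those of the highest HOXB6 peaks. HOXB1 scored 19, 32, 27, 11 and 20, and its 697 peak, at percentile 3.80, was the lowest at any HOX gene. HOXB6 scored 13, 25, 31 and 40 in the lists other than 697. HOXB2 scored 17, 46, 26, 16 and 37, HOXB7 scored 18, 32, 30, 37 and 32, HOXB8 scored 18, 32, 29, 19 and 31 and HOXB9 scored 21, 31, 34, 32 and 29. In both JM1 lists the HOXB7 and HOXB8 scores were those of a shared peak. HOXB13, a prostate gene that lies apart from the rest at the far end of the cluster, scored 19, 19, 33 and 28 in the lists other than 697, where the nearest peak was 4173 bp away.

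The HOXC cluster (chr12:53938831-54056030) had a peak near every gene in every list. HOXC12 held the highest HOX score in untreated JM1, 38 at percentile 98.8, and in 697, 58 at percentile 95.3, and scored 34 in JM1 with CX-4945, 31 in REH and 38 in Nalm6. The HOXC4 and HOXC6 genes shared the highest HOX peak of treated JM1, with a score of 58. In the other lists HOXC4, which takes part in antibody class switching in mature B cells, scored 16 in untreated JM1, 37 in REH, 29 in 697 and 32 in Nalm6. HOXC11 scored 30, 52, 30, 24 and 40, HOXC13, a gene of hair development, scored 29, 37, 24, 38 and 35, and HOXC9 scored 30, 37, 32, 47 and 24. HOXC6 scored 30, 58, 41, 31 and 31, HOXC5 scored 24, 32, 27, 21 and 32, HOXC8 scored 17, 37, 22, 37 and 40 and HOXC10 scored 22, 46, 29, 20 and 32. In untreated JM1, HOXC6, HOXC9, HOXC11, HOXC12 and HOXC13 were at or above percentile 95, and no gene of the other clusters was. The HOXC6 and HOXC9 scores there were those of a shared peak.

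In the HOXD cluster (chr2:176092721-176190907) HOXD3 had the highest HOX score in Nalm6, 45, and scored 46 in treated JM1, 32 in REH and 29 in 697. HOXD13, which patterns the digits, scored 17 and 21 in JM1 without and with CX-4945, 27 in REH, 19 in 697 and 41 in Nalm6. HOXD10 and HOXD11, limb genes that lie side by side, shared their highest peak in REH (score 28), 697 (32) and Nalm6 (44). In JM1 without and with CX-4945, HOXD10 scored 12 and 29 and HOXD11 12 and 20. HOXD12 scored 14, 29, 37, 15 and 23 and HOXD1 scored 18, 28, 30, 17 and 30. HOXD held the fewest peaks in untreated JM1, 8, against 18 in HOXA, 22 in HOXB and 21 in HOXC.

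The question of the JM1 pair was how Ikaros occupancy differed after CK2 inhibition. At HOX start sites the treated list added 7 genes and lost none: HOXA2, HOXA3, HOXA6, HOXB5, HOXD3, HOXD4 and HOXD8 had a peak in the treated list alone (17.9%), where 23.0% of all protein-coding genes did. No HOX gene had one in the untreated list alone, where 0.564% of all genes did. A RefSeq promoter of HOXA3 (chr7:27122978-27123277) was overlapped by a peak in both untreated JM1 (score 12) and treated JM1 (16). HOXA3 was thus added only when start sites were taken from GENCODE. Only the 7 HOX genes without an untreated peak could be added, and all 7 were. Among all protein-coding genes, 4608 of the 8258 without an untreated peak had a treated one. Among CpG-rich genes it was 2315 of 2609. The share of added genes is thus limited by the untreated count and cannot show whether the treated list favoured HOX genes. With only the canonical start site of each gene, 28 of 39 had an untreated peak (background 53.2%), and there were 11 added genes, with HOXB3, HOXB6, HOXB8 and HOXD11 besides (background 25.5%), and again none in the untreated list alone (background 0.679%). The treated list was longer over the whole genome, by 2.37 times in peaks.

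The 7 genes differed in how far they were from an untreated peak. The nearest untreated JM1 peak to any of their GENCODE start sites was 1341 bp away at HOXB5, 2127 bp at HOXA3, 2418 bp at HOXA6, 3692 bp at HOXA2, 3711 bp at HOXD3, 5773 bp at HOXD8 and 10455 bp at HOXD4. HOXB5, HOXA3 and HOXA6 thus lay within a few kilobases of untreated enrichment, and a window of 2500 bp counts all 3 as having an untreated peak. Among the treated peaks, that at HOXD3 scored 46 (percentile 94.4), those at HOXA3 and HOXA6 were 1 shared peak with a score of 31, HOXA2 scored 26, HOXB5 25, HOXD8 25 and HOXD4 14 (percentile 29.5). By the highest peak of each gene, HOXD3 was the strongest and HOXD4 the weakest. A second treated peak, over the RefSeq promoter of HOXA6, scored 13. HOXA3, which is needed for the thymus and parathyroid glands, has an upstream start under the same treated peak as an upstream HOXA6 start.

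Over the whole clusters the 2 JM1 lists overlapped by at least 1 bp more often than they did genome-wide. Of 69 untreated peaks in the clusters, 67 were overlapped by a treated peak (97.1%, interval 89.9 to 99.6%), against 84.1% over the whole list. Of 78 treated peaks, 52 were overlapped by an untreated one (66.7%, interval 55.1 to 76.9%), against 29.0%. The 2 untreated peaks without a treated one were both in HOXB, at chr17:48558548-48559292 in an intron of HOXB-AS2 (score 13) and at chr17:48724932-48725532 near MIR3185 (score 15). The overlap depended on how it was counted: with a reciprocal overlap of 50% the shares were 29.0% and 25.6%, with no whole-list share to compare. Peaks also covered more of the clusters than of the genome, 18.2% against 1.44% untreated and 44.9% against 5.70% treated. How far this coverage sets the overlap was not tested.

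Over the 4 clusters together the JM1 lists differed more in covered length than in number of peaks. Peaks numbered 69 untreated and 78 treated, a ratio of 1.13, while their summed width differed by 2.51 times. Over the whole lists the ratios were 2.37 in number and 3.97 in summed width. HOXD differed from this, with 8 untreated and 16 treated peaks and median widths of 1428 and 1489 bp. By cluster the summed width differed by 2.78 times in HOXA, 2.40 in HOXB, 2.44 in HOXC and 2.58 in HOXD. HOXC gained the most in percent of its length covered: it held 21 untreated peaks and 14 treated peaks, and yet the covered length went from 35.4 kb (30.2% of the cluster) to 82.4 kb (70.3%). A single treated peak of 21.5 kb ran over HOXC6, HOXC8 and HOXC9, the peak ranked 281 by width in its list, and 2 others of 11160 and 15561 bp covered starts of HOXC4, HOXC5 and HOXC6. HOXA went from 17.3 to 47.1% covered, HOXB from 14.4 to 33.9% and HOXD from 12.6 to 34.5%, with the genome at 1.44% and 5.70%. In the map of peaks along the clusters, 41 of the 69 untreated peaks lay wholly inside a treated one, and 59 were overlapped by a treated peak wider than themselves. In HOXD this was so for 3 and 4 of 8, and the HOXD13 peak was 2346 bp wide untreated and 1597 bp treated.

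**Figure D3:**
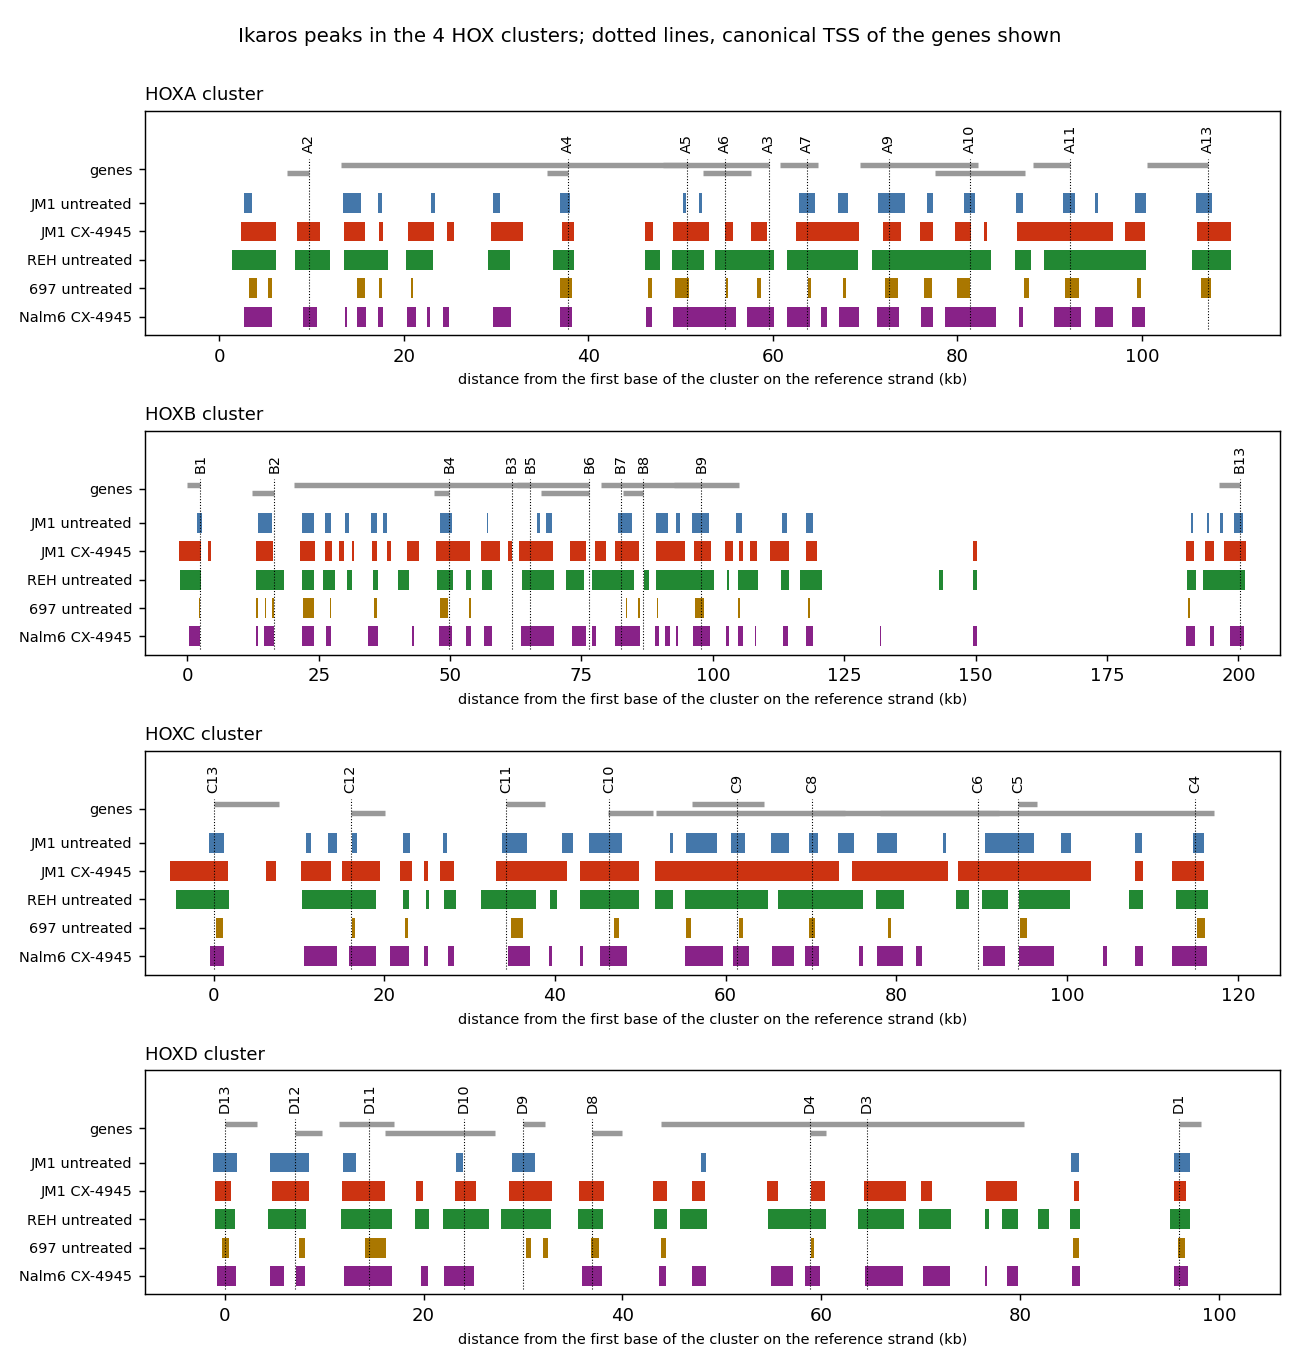
Peaks (coloured blocks, to scale) in each HOX cluster by distance in kb from the first base of the cluster, 1 row per list; grey bars are the genes named in the text and dotted lines their canonical TSSs. In HOXC there are 21 untreated JM1 peaks and 14 treated ones, and in HOXD the Nalm6 row is empty at D9.

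Treated-alone JM1 peaks in the clusters were often peaks of other lines too. Of the 26 such peaks, 21 overlapped a REH peak (80.8%, interval 60.6 to 93.4%), against 53.9% of the treated-alone peaks of the whole list. The same number overlapped a Nalm6 peak (80.8% against 36.4%), and 6 overlapped a 697 peak (23.1% against 4.87%). The untreated REH list thus had peaks overlapping most of the cluster peaks found in the treated JM1 list alone. REH peaks covered 49.0% of the clusters and 5.76% of the genome, Nalm6 peaks 30.9% and 3.21%, and 697 peaks 7.35% and 0.524%. REH and Nalm6 lists were also long, and how far list length and coverage set these overlaps was not tested.

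Between untreated JM1 and untreated REH, precipitated with the same antibody, REH had a peak at every HOX gene that JM1 had and at 7 more. These were HOXA2, HOXA3, HOXA6, HOXB5, HOXD3, HOXD4 and HOXD8, by GENCODE start sites. At HOXA3 a RefSeq promoter was overlapped by a peak in both lists, with a score of 12 in untreated JM1 and 18 in REH. Treated JM1 and REH both had a peak at all 39 genes, so the genes that either adds to untreated JM1 are by construction the 7 that untreated JM1 lacks. The background for a REH peak without a JM1 peak was 23.5%, and for the reverse 0.454%. REH scores at the 7 genes were 26 at HOXA2, 42 at HOXA3, 30 at HOXA6, 25 at HOXB5, 32 at HOXD3, 25 at HOXD4 and 42 at HOXD8. HOXD8 held the highest REH peak of its cluster.

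REH had the widest coverage of HOXA among the lists. Its 14 HOXA peaks covered 63.0% of the cluster, with a median width of 3979 bp, whereas 18 untreated JM1 peaks covered 17.3% and 20 treated JM1 peaks 47.1%. The widest, of 12.9 kb, spanned HOXA9 and HOXA10, with peaks of 7735 bp at HOXA7 and 11091 bp at HOXA11. With each list limited to 19652 peaks REH still covered 47.9% of HOXA, against 13.0% in treated JM1, 11.1% in untreated JM1, 13.3% in 697 and 26.1% in Nalm6. At that length treated JM1 covered 64.9% of HOXC and REH 21.8%. The cluster with the widest coverage was thus HOXA in REH and HOXC in JM1, at either list length.

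**Figure D4:**
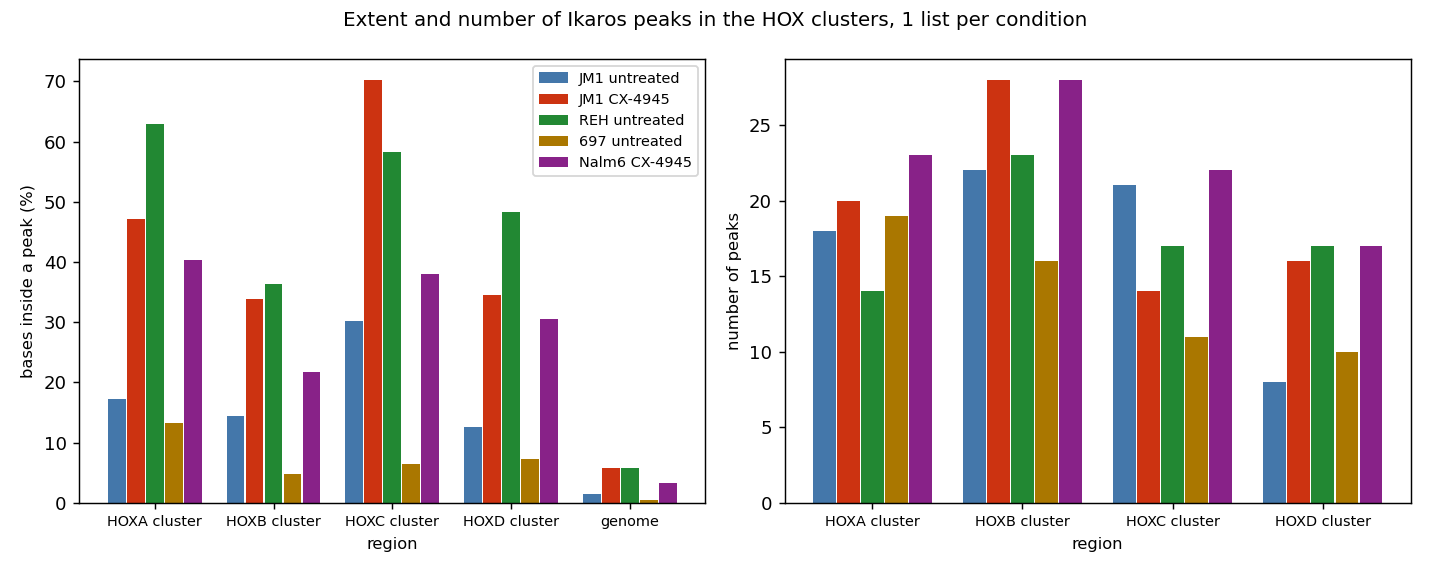
Left, percent of bases inside a peak in each HOX cluster and in the genome; right, number of peaks in each cluster; 1 bar per list, with no replicates. Coverage is highest for treated JM1 in HOXC (70.3%) and for REH in HOXA (63.0%), while HOXC holds fewer treated JM1 peaks (14) than untreated ones (21).

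The other antibody was used in 697 and in treated Nalm6, where line and treatment both differed and cannot be told apart. Nalm6 had a peak at HOXA2, HOXB5, HOXB6 and HOXB13, which 697 lacked (background for Nalm6 without 697 26.0%). The nearest 697 peak was 3959 bp from HOXA2, 11344 bp from HOXB5, 7028 bp from HOXB6 and 4173 bp from HOXB13. The middle of HOXB was therefore empty in 697 over a stretch where Nalm6 had a peak of 6.31 kb at HOXB5 and HOXB6, with a score of 35. At HOXA2 the Nalm6 score was 12, at percentile 10.6 and the lowest of that list at a HOX gene. In 697 the clusters held 56 peaks that covered 7.35% of their length, and in Nalm6 90 peaks that covered 30.9%. The covered shares of the genome were 0.524% and 3.21%. Few and narrow peaks thus marked most HOX genes in 697, with a median width of 509 bp in the clusters and 626 bp in the whole list. Some genes had a peak near a GENCODE start in 697 and not in untreated JM1. There the 697 and Nalm6 scores were 46 and 37 at HOXA3, 31 and 30 at HOXA6, 29 and 45 at HOXD3, 34 and 22 at HOXD4 and 28 and 26 at HOXD8.

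In the other direction, HOXA13 and HOXD9 had a peak in 697 and not in Nalm6 (background 1.12%). HOXA13, which patterns the distal limb and genital tract, scored 18 and 31 in JM1 without and with CX-4945, 54 in REH and 28 in 697. HOXD9 scored 23, 27, 37 and 29 in the same lists. Nalm6 was the single list that lacked either. Its nearest peak was 2231 bp from the HOXA13 start and 4936 bp from the HOXD9 start.

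The Nalm6 list bears directly on these absences. Its peaks are numbered in genome order up to 73373, and 2479 numbers are absent from it, whereas no number is absent from the other lists. Exactly 1 absent number, 42130, falls between the peaks on either side of HOXD9, which end at chr2:176117783 and begin at chr2:176128610. Exactly 1, 63355, falls between those on either side of HOXA13, which end at chr7:27193356 and begin at chr7:27202322. No peak of the Nalm6 list is without a gene name, whereas 511 to 3103 peaks are in each other list. In the other lists the HOXD9 peak has no gene name in 4 of 4, and the HOXA13 peak has none in untreated JM1 and 697 and the name AC004080.9 in treated JM1 and REH. The sources used here do not say what the absent numbers stood for, so a Nalm6 gap at HOXD9 or HOXA13 cannot be read as a lack of enrichment. Without the Nalm6 list, 30 HOX genes had a peak in all 4 others (background 42.5%).

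Peaks from all lists were merged into regions to ask which were shared. The clusters held 69 regions, of which 33 had a peak of every list (47.8%, interval 35.6 to 60.2%), against 8.99% of 123054 regions over the genome. Only 9 came from 1 list (13.0%), against 48.7%. Cluster peaks were more often in the authors' promoter class, with 46.4, 43.6, 40.8, 55.4 and 33.3% in the order of the lists. Over all peaks it was 26.3, 16.1, 16.9, 40.7 and 19.2%. How far this sets the shared regions was not tested. By cluster, 9 of 13 HOXA regions, 11 of 27 HOXB regions, 8 of 13 HOXC regions and 5 of 16 HOXD regions were shared by all lists. Wide peaks join neighbours, so a shared region may hold peaks at separate places, as in HOXC, where 1 region of 34292 bp held starts of HOXC4, HOXC6, HOXC8 and HOXC9. Of the 33 shared regions, 26 lay within 1000 bp of a HOX TSS.

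The other 7 shared regions were away from every HOX TSS. One lay at the HAGLR start (chr2:176177745-176178780), a noncoding gene of the HOXD cluster, and held the highest HOXD peak of untreated JM1, with a score of 27, and of 697, with a score of 37. Another, at HOXB-AS2 (chr17:48562916-48564821), held the highest peak of any cluster in Nalm6, with a score of 59 at percentile 97.0. In JM1 the highest HOXB peak was in an intron of HOXB3, with a score of 30 over 285 bp untreated and 49 over 3664 bp treated. In REH it was an intergenic peak named for LINC02086, with a score of 66.

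Noncoding genes of the clusters followed the coding ones. Of 22 such genes, 19, 21, 22, 17 and 20 were reached by a peak in the order of the lists. The shares of all protein-coding genes were 58.8, 81.2, 81.8, 49.5 and 74.3%, and no share over noncoding genes is given. HOTAIR, which is transcribed opposite HOXC11 and is known for acting with Polycomb, scored 30, 52, 30, 24 and 40 in that order. HOTTIP, at the HOXA13 end of HOXA, scored 18, 31, 54, 28 and 20. HOXA-AS3 scored 16, 31, 63, 46 and 44. These start sites lie among those of the coding genes, often under the same peak, and cannot be counted as separate evidence.

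The clusters also hold microRNA genes whose products target HOX messages, and their mature sequences (RefSeq) are printed because the families are defined by the seed, bases 2 to 8, in capitals.
hsa-miR-196a-5p: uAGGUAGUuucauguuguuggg
hsa-miR-196b-5p: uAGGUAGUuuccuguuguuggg
hsa-miR-10a-5p: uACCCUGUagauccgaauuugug
The miR-196 products share 1 seed, although they come from HOXB (MIR196A1), HOXC (MIR196A2) and HOXA (MIR196B). The MIR196B hairpin was overlapped by a peak in treated JM1 (score 33), REH (43), 697 (27) and Nalm6 (37), and lay 146 bp from one in untreated JM1 (12). MIR196A2 was overlapped in treated JM1 (37) and REH (20) and was 468 bp from a peak in untreated JM1, 2384 bp in 697 and 2206 bp in Nalm6. MIR196A1 was overlapped in no list and had a peak within 833 bp in each. MIR10A, next to HOXB4, was overlapped in treated JM1 (41) and lay 665 to 1641 bp from a peak in the others. MIR10B, next to HOXD4, was overlapped in REH (25) and lay 9208 bp from the nearest peak in untreated JM1, in the stretch around HOXD4 that had no untreated peak. MIR615, inside HOXC5, was overlapped in 5 of 5 lists.

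The genes of the HOX cofactors had peaks in most lists. The TALE homeodomain proteins of the MEIS, PBX and PKNOX families bind DNA together with HOX proteins, and all 9 genes were reached in each list except 697, which reached 7. MEIS1 scored 15, 24, 32, 18 and 28 in untreated JM1, treated JM1, REH, 697 and Nalm6. PKNOX1 scored 22, 76, 86, 82 and 56, the highest of the cofactor genes in the 4 lists other than untreated JM1. PBX2 had no peak in 697 and scored 21, 35, 45 and 30 in the remaining lists. Of 9 caudal, ParaHox and cluster-flanking homeobox genes, 7, 9, 8, 7 and 8 had a peak, and CDX4, an upstream regulator of HOX genes in blood formation, had one in treated JM1 (15) and Nalm6 (14) only. Beside both sets of 9, the shares of all protein-coding genes were 58.8, 81.2, 81.8, 49.5 and 74.3% in the order of the lists.

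Peaks anywhere in the clusters held the Ikaros core motif at shares near those of whole lists, while the share at HOX start sites was lower in untreated JM1 (47.2%) than that of all start-site peaks (64.6%), a difference with no replicate check. The motif GGGAA, on either strand, was present in the 300 bp at the peak centre in 60.9% of 69 untreated JM1 peaks (interval 48.4 to 72.4%), 70.5% of 78 treated JM1 peaks (59.1 to 80.3%), 69.0% of 71 REH peaks (56.9 to 79.5%), 57.1% of 56 peaks in 697 (43.2 to 70.3%) and 70.0% of 90 Nalm6 peaks (59.4 to 79.2%). Over all peaks of each list the shares were 65.3, 64.0, 64.2, 59.7 and 64.6%, each inside the HOX interval. Of the 36 untreated JM1 peaks near a HOX TSS, 17 held it (47.2%, interval 30.4 to 64.5%), and the 64.6% of all peaks near a protein-coding TSS lay just outside that interval. In the other lists the shares near a HOX TSS were 68.1% (treated JM1), 69.6% (REH), 61.0% (697) and 64.6% (Nalm6), with the share of all start-site peaks inside each interval. The longer form TGGGAA, which contains GGGAA, was in 18.8, 19.2, 18.3, 12.5 and 18.9% of HOX cluster peaks, against 25.5, 27.6, 27.5, 17.9 and 26.3% of all peaks. The longer form was less frequent in HOX cluster peaks in each list, and the whole-list share lay inside the HOX interval in each. The median GC content of the 300 bp was 56.3 to 68.8% in HOX cluster peaks, and in 697, the highest, 68.8% beside 69.3% in all peaks. A match is a run of letters and not a measured binding site.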

How the data were processed

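Ikaros chromatin immunoprecipitation libraries were sequenced in pairs and trimmed with BBDuk, per the labels' protocols. The tools listed are HOMER 4.10, MACS2 2.1.1 and Bowtie2 2.3.4.3, with GRCh38 as build, per the submitters' processing notes. How peaks were called, against which control, and how the score was defined were not given in the sources used here. Positions come with an annotation class, a gene name and a peak score per peak, as deposited by the authors, per the file headers. Read depth was not analysed here, nor were the input libraries. Without depth, list length does not measure binding. Of the 2 Nalm6 Ikaros libraries, which gave the list is not stated.

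From these, coordinates were used as deposited with GENCODE release 44 start sites, the canonical one being MANE Select or else Ensembl canonical. A start site was CpG-rich when 500 bp on each side held at least 55% GC and a CpG observed to expected ratio of at least 0.65. Clusters ran from the first to the last base of their HOX genes, and an overlap of at least 1 bp counted as shared. The computations used Python 3.11.15, pandas 2.3.3, NumPy 2.4.6, SciPy 1.17.1 and matplotlib 3.10.9. Only the rules for a peak near a TSS, for overlap and for covered length were tested on simulated peaks. With 1 list per condition there was no test. Alternatives were other windows and start sites, peak centres, equal list lengths, a score of at least 20, the file's gene names, reciprocal overlap and wider clusters. The members, gene lists and rules were chosen with earlier results of these data known. The rule for named genes took genes by their pattern over the lists and the genes at the highest-scored and widest peak of each cluster, and other scores are given so that each member is accounted for. It planned sequences at the highest-scored peaks, and RefSeq promoters were printed instead. Promoter entries were matched by symbol for 20 genes. The values of a few genes are counted in the totals and are not reported here by name.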

Additional observations from a re-analysis of the deposited data

How the results depend on the processing

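Of 276 recomputed values, 217 stayed within 1.5 times the count or within the interval of the value reported, and 59 did not, of which 37 were counts or shares of a single cluster. HOX genes with a peak near a TSS fell to 15 of 39 in untreated JM1 at a score of at least 20 (background 26.5%), to 18 in REH with equal list lengths (background 62.2%), and to 23 in REH and 23 in 697 by the gene name in the file, which gives a peak to 1 gene. The count in all 5 lists was 11 by peak centre (background 32.6%), 8 with equal list lengths (background 26.5%), 13 at a score of at least 20 (background 17.5%) and 11 by gene name. Genes in the treated JM1 list alone numbered 4 with a window of 2500 bp (background 22.1%), 11 with canonical start sites (background 25.5%) and 22 at a score of at least 20 (background 45.7%). Genes in the untreated JM1 list alone numbered 8 by peak centre (background 6.19%), 3 with equal list lengths (background 5.86%) and 6 by gene name. No share over all genes is given for the counts by gene name, so they cannot show a trait of HOX genes. The share of untreated JM1 cluster peaks with a treated one was 29.0% with a reciprocal overlap of 50% and 87.0% with both lists at the length of the untreated one, and the share of treated peaks with an untreated one was 25.6% and 77.6%. Coverage of the 4 clusters was 8.07% in untreated JM1 at a score of at least 20, and with equal list lengths it was 27.3% (treated JM1), 23.2% (REH) and 17.4% (Nalm6) (genome 1.89, 2.09 and 1.29%). The comparison of the 4 lists other than Nalm6 was chosen after seeing the data.

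No paired analysis was possible because each condition has 1 peak list and no result comes from a test, and for the same reason no replicate was left out. Differences between conditions therefore have no replicate check. Counting intervals treat neighbouring HOX genes as independent, although some share a peak. Without read depth, list length and enrichment cannot be told apart.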
